A study of Cucumis sativus with 12 samples.

Results

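MYB transcription factors of cucumber (Cucumis sativus) leaves were followed through a day of cold after a spray with chitosan oligosaccharide (COS), an elicitor cut from the polymer chitosan. Genes were taken as MYB-described when the description in the deposited table held the word MYB in any case, and they were kept when they reached 1 FPKM (fragments per transcript length and library size) in at least 3 of the 12 libraries. The table holds 24317 genes and 96 of them were MYB-described; 55 of these passed and are the members described here, among 16432 genes tested. Seedlings grown at 28 °C by day and 18 °C by night were sprayed as young plants with COS at 50 mg/L and, 24 h later, moved to 12 °C by day and 6 °C by night with a 12 h photoperiod. The groups were COS-sprayed leaves after 0, 3, 12 and 24 h of that cold, with 3 libraries each, made from the fully expanded leaves 2 and 3. Every group, the 0 h group included, had received the spray, and water-sprayed groups were not analysed here. Cold, time since the spray and plant age advanced together, and the hour of sampling is not stated. The durations may thus also differ in light and in day or night temperature at sampling. The effects of all these cannot be told apart. Nothing in the labels says that libraries of 1 duration are separate plants, so each p-value reflects how far these libraries differ, part of which may be technical.

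MYB proteins bind DNA through repeats of a helix-turn-helix fold, and plants carry far more of them than animals do. Most plant MYB factors have an R2R3 domain; they switch phenylpropanoid, flavonoid and wax genes, shape epidermal cells and act in hormone and stress responses. Single-repeat MYB factors and the related GARP factors include regulators of water loss, phloem identity and phosphate starvation, and MYB3R factors time the expression of cell-division genes. Clock proteins of the LHY and REVEILLE kind also carry a MYB repeat, but their descriptions do not use the word, so they are not among the members. The names are those of the best-known relative, often from snapdragon, maize, rice or Arabidopsis, and a role given with a name is that of the relative.

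Depth was similar across libraries, at 62.7 to 81.6 M units of estimated count (M, 10 to the power of 6). Pairs of libraries of 1 duration correlated at 0.9822 to 0.9826 at 0 h and 0.9809 to 0.9847 at 3 h. The range was 0.9818 to 0.9849 at 12 h and 0.9615 to 0.9765 at 24 h, so the 24 h libraries were the least alike. These are Pearson correlations of log2 counts scaled to library size, taken across tested genes, which are not independent replicates. The labelled leaf tissue was matched by mesophyll markers: 19 of 19 chlorophyll-binding and Rubisco small-subunit genes were tested, and their summed level was 21924 to 23506 FPKM at 0 h, 34596 to 35388 at 3 h, 45877 to 49966 at 12 h and 23528 to 26126 at 24 h. Guard cell markers summed to 54.2 to 63.2 FPKM at 0 h, 75.3 to 81.5 at 3 h, 83.0 to 94.0 at 12 h and 54.0 to 70.8 at 24 h, with 10 of 15 tested and 1 at 0 in all 12 libraries. Xylem markers (4 of 11 tested) summed to 10.2 to 18.7 FPKM and epidermis markers (2 of 5 tested) to 29.5 to 51.3 FPKM over the 12 libraries. The part of these shifts in the values below was not tested. In bulk leaves a lower level can mean fewer cells of a type or less RNA per cell, and these cannot be told apart.

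By patterns in the descriptions, 40 of the 55 members were put in the R2R3 type, from 73 described genes. Repeats were not read from sequence, so the types rest on names alone. The MYB1R1 single-repeat genes were all measured, 5 of 5, as were 4 of 6 GARP-type genes, 1 of 2 genes named 3R and 5 of 10 others. A total of 52 members carry the DNA-binding term. The other 3, all described as target of Myb protein 1, carry a term for intracellular protein transport instead; that name belongs to vesicle-trafficking proteins and not to transcription factors. Mean levels over the 12 libraries lay between 0.582 and 138 FPKM with a median of 7.94, against 9.92 for all tested genes, and 21 members averaged at least 10 FPKM. The members are spread over all 7 chromosomes, with 13 on chromosome 3, 9 each on 1 and 2, 8 on 6, 6 each on 4 and 5, and 4 on 7.

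At the threshold, 39 members reached 1 FPKM in all 12 libraries and 3 in exactly 3 libraries, each of these in a single duration: the MYB86-like gene CsaV3_1G008780 at 0 h, the MYB6-like gene CsaV3_7G004040 at 3 h and MYB98 (CsaV3_5G027280) at 24 h. Such a gene enters through the duration where it is high, so its difference from other durations is given below with no test. The counts below include these 3 genes; without them 32 of 52 members were called at 3 h (61.5%), 38 at 12 h (73.1%) and 42 at 24 h (80.8%) against 0 h, 29 at 12 h against 3 h (55.8%) and 34 at 24 h against 12 h (65.4%). Just outside were 2 genes with exactly 2 libraries, the myb-like protein X gene CsaV3_3G012810 and the 3R-1 gene CsaV3_2G031060, both through the 24 h libraries. Of the 41 genes below the filter, 8 had no count in any library.

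At 3 h against 0 h, 24 members rose and 10 fell. With an adjusted p below 0.05 as the threshold (edgeR's quasi-likelihood test, Benjamini-Hochberg over all tested genes), 34 of 55 members were called, 61.8%, against 57.7% of all tested genes. The rises made up 43.6% of the members against 29.4% of all tested genes, and the falls 18.2% against 28.3%. Without the second 3 h library, 20 members rose (36.4%, against 26.5% of all tested genes) and 6 fell (10.9%, against 25.6%). The median log2 fold change was 0.18 over the members and 0.00 over all tested genes. A change of at least 2-fold with the same threshold was seen in 16 members, 29.1%, against 19.9% of all tested genes.

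At 12 h against 0 h, 40 members were called, 72.7% against 67.4% of all tested genes. Equal numbers rose and fell, 20 each or 36.4%, where 34.4% of all tested genes rose and 33.0% fell. At 24 h against 0 h, 45 members were called, 81.8% against 74.2% in all, with 22 rises (40% against 36.2%) and 23 falls (41.8% against 37.9%). Changes of at least 2-fold were seen in 25 members at 12 h, 45.5% against 29.5% in all, and in 31 at 24 h, 56.4% against 37.4% in all.

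Among called members, the steps between cold durations went mostly down and then more often up than down. At 12 h against 3 h, 30 members were called, 54.5% against 55.5% in all, and 24 of them fell (43.6% against 27.6%) while 6 rose (10.9% against 27.9%). The median log2 difference was -0.36 over the members and 0.00 over all tested genes. At 24 h against 12 h, 36 members were called, 65.5% against 51.9% in all, with 22 rises (40% against 24.5%) and 14 falls (25.5% against 27.4%), and the median was 0.24 over the members and -0.04 over all tested genes. Without the first 24 h library, 21 members rose at 24 h against 12 h (38.2%, against 23.6% of all tested genes) and 17 fell (30.9%, against 27.1%). These comparisons share libraries with each other, so their counts are not independent.

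**Figure D1:**
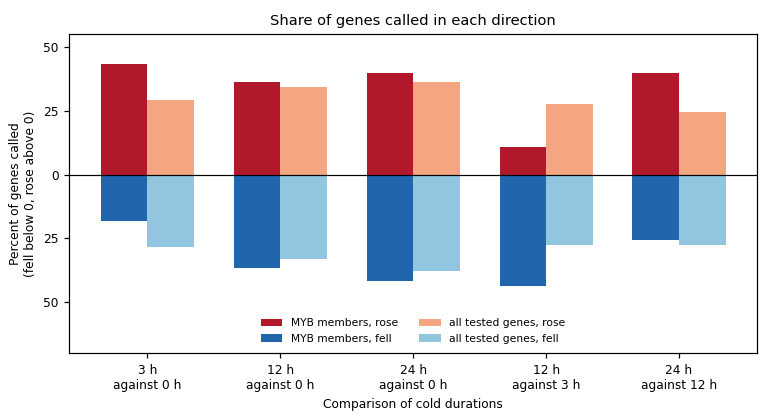
Percent of genes called in 5 comparisons of cold durations, with rises above and falls below the zero line; dark bars are the 55 MYB members and light bars all 16432 tested genes. The bars of members and all genes differ most for the step of 12 h against 3 h, where 10.9% of members and 27.9% of all genes rose.

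By the duration with the highest mean, 18 members peaked at 0 h, 18 at 3 h, 2 at 12 h and 17 at 24 h. These are 32.7% of the members at 0 h, 32.7% at 3 h, 3.64% at 12 h and 30.9% at 24 h, against 33.4%, 21.8%, 18.1% and 26.7% of all tested genes at those durations. The 2 members with their peak at 12 h are both MYB44-like. Against 0 h, 10 members rose at all 3 later durations (18.2%, against 16.6% of tested genes) and 9 fell at all 3 (16.4%, against 16.9%). Both directions were called in 7 members (12.7%, against 10.3% of tested genes), a count that rests on narrow calls: it was 3 (5.45%, against 7.75%) without the first 0 h library and 4 (7.27%, against 9.29%) without the second 3 h library. A test over all durations called 51 members, 92.7% against 89.3% in all.

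**Figure D2:**
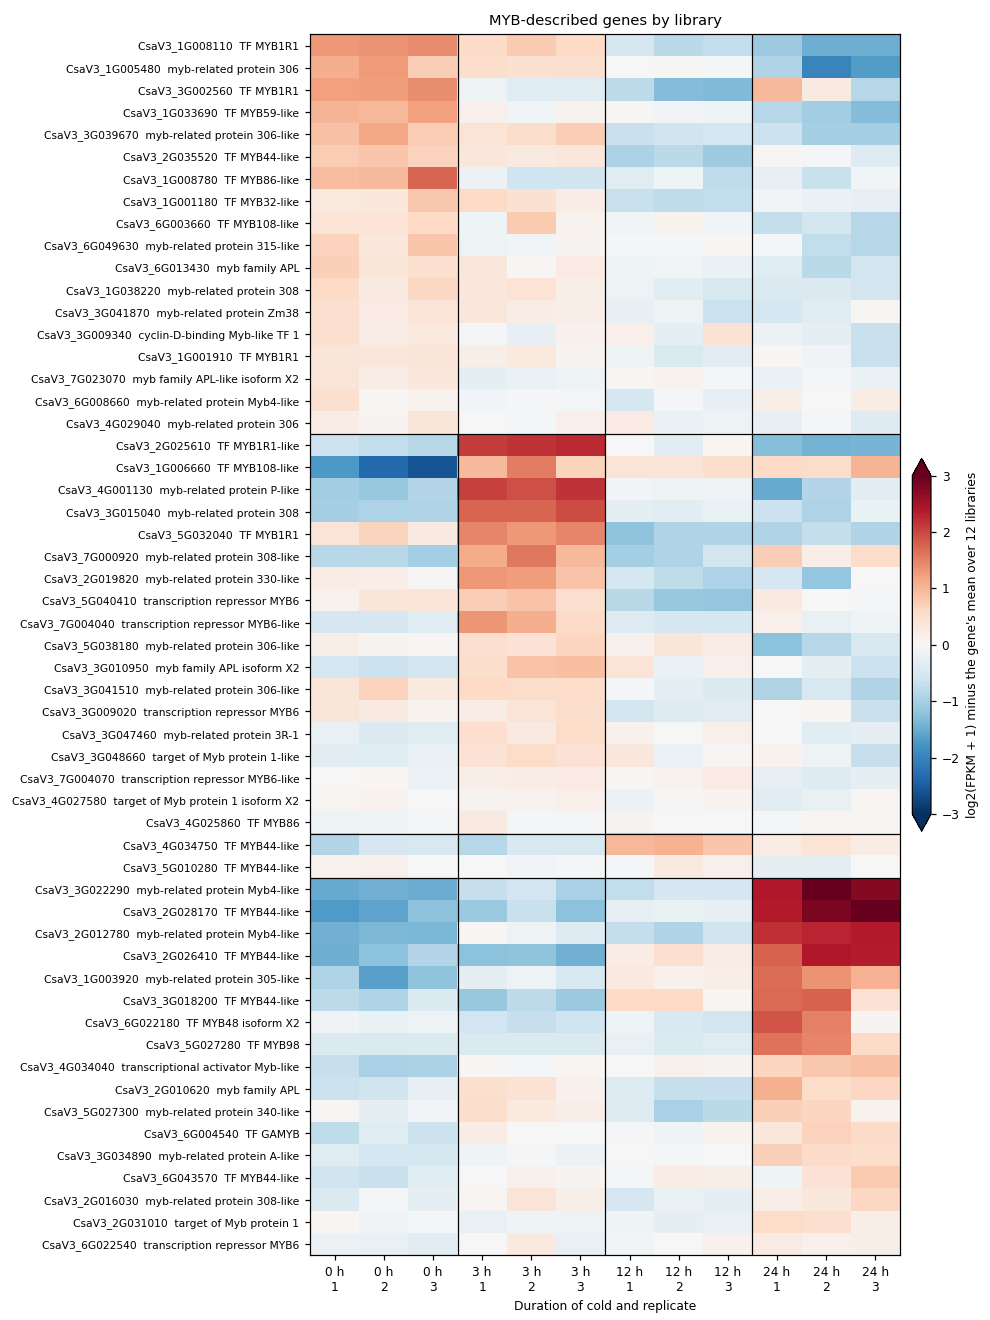
Level of each of the 55 members in each of the 12 libraries, as log2(FPKM + 1) minus the gene's mean over the 12 libraries; rows are grouped by the duration with the highest mean and colours are cut off at 3 either way. Blocks of 18, 18, 2 and 17 genes peak at 0, 3, 12 and 24 h.

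On the log2(FPKM + 1) scale the largest early rise, by 3.28, was that of a MYB108-like gene, CsaV3_1G006660 on chromosome 1 (4287009 to 4288668). MYB108 of Arabidopsis acts in responses to fungal infection and abiotic stress. The gene had 9.81, 6.10 and 4.98 FPKM at 0 h, 69.9, 103 and 56.2 FPKM at 3 h, 46.6, 45.8 and 50.4 FPKM at 12 h and 53.3, 52.0 and 71.4 FPKM at 24 h. All 9 chilled libraries lay above all 0 h libraries. The log2 fold change against 0 h was 3.46 ± 0.27 at 3 h (SE; adjusted p = 6.44e-07), 2.83 ± 0.26 at 12 h (1.31e-06) and 3.14 ± 0.26 at 24 h (4.03e-07). The other measured MYB108-like gene, CsaV3_6G003660, had 0.193, 0.355 and 0.0863 FPKM at 24 h against 1.61, 1.60 and 1.99 FPKM at 0 h, a fall of log2 fold change -2.96 ± 0.48 (adjusted p = 0.000127). These 2 genes share a name and went opposite ways.

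The P-like and 308 genes had their highest levels at 3 h. The P-like gene CsaV3_4G001130, named after the maize pigment regulator P, had 1.26, 1.12 and 1.54 FPKM at 0 h, 18.5, 16.8 and 20.2 at 3 h, 3.44, 3.20 and 3.33 at 12 h and 0.644, 1.53 and 2.72 at 24 h. It rose at 3 h against 0 h (log2 fold change 3.81 ± 0.38, adjusted p = 5.18e-06) and was lower at 12 h than at 3 h (-2.42 ± 0.36, adjusted p = 0.000116). At 12 h it was still above 0 h (1.39 ± 0.36, adjusted p = 0.00454), and its 24 h libraries overlapped those of 0 h. The 308 gene CsaV3_3G015040, named after a snapdragon repressor of phenolic acid and lignin synthesis, had 0.320, 0.392 and 0.412 FPKM at 0 h, 7.78, 7.77 and 9.19 at 3 h, 1.14, 1.09 and 1.27 at 12 h and 0.680, 0.390 and 1.28 at 24 h. Its rise at 3 h was the steeper of the 2 (4.43 ± 0.37, adjusted p = 1.09e-06), from a level under 1 FPKM in each 0 h library. It was still called as a rise at 12 h (1.67 ± 0.35, adjusted p = 0.000965) and at 24 h (1.10 ± 0.35, adjusted p = 0.0122), the last of which was lost without the third 24 h library (adjusted p = 0.0722).

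The other 308-named genes followed each its own course. The 308-like gene CsaV3_7G000920 had 1.06, 1.05 and 0.813 FPKM at 0 h, 6.85, 10.0 and 6.23 at 3 h, 0.811, 0.945 and 1.48 at 12 h and 5.12, 3.18 and 4.32 at 24 h. It was high at 3 and 24 h and low at 0 and 12 h, with a log2 fold change against 0 h of 2.97 ± 0.29 at 3 h (adjusted p = 4.33e-06), 0.20 ± 0.28 at 12 h (0.547) and 2.16 ± 0.28 at 24 h (2.17e-05). The 308-like gene CsaV3_2G016030 had 6.17, 8.37 and 7.01 FPKM at 0 h, 9.07, 11.5 and 9.88 at 3 h, 5.81, 7.28 and 6.87 at 12 h and 9.98, 10.9 and 13.7 at 24 h. It too was higher at 3 h (0.49 ± 0.16, adjusted p = 0.018) and 24 h (0.74 ± 0.16, adjusted p = 0.00113) than at 0 h, with its highest mean at 24 h, and the call at 3 h was lost without the first or the third library of 0 h or the second of 3 h (adjusted p 0.0529 to 0.0771). CsaV3_1G038220, the fourth, had 0.319, 0.317 and 0.212 FPKM at 24 h against 1.71, 1.17 and 1.76 FPKM at 0 h and fell (-2.38 ± 0.31, adjusted p = 2.01e-05).

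The 330-like gene CsaV3_2G019820, whose snapdragon namesake also acts on phenolic synthesis, turned direction. It had 7.98, 7.83 and 6.86 FPKM at 0 h, 18.0, 17.3 and 12.8 at 3 h, 4.28, 3.53 and 3.01 at 12 h and 4.45, 2.44 and 6.69 at 24 h. The 3 h libraries were all above, and the 12 and 24 h libraries all below, those of 0 h. The log2 fold change against 0 h was 1.08 ± 0.28 at 3 h (adjusted p = 0.00552) and -1.02 ± 0.28 at 12 h (adjusted p = 0.0072). At 24 h it was -0.68 ± 0.28 (adjusted p = 0.0434), and this call was lost without any one of the 3 libraries of 0 h (adjusted p 0.0562 to 0.094), among other libraries.

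**Figure D3:**
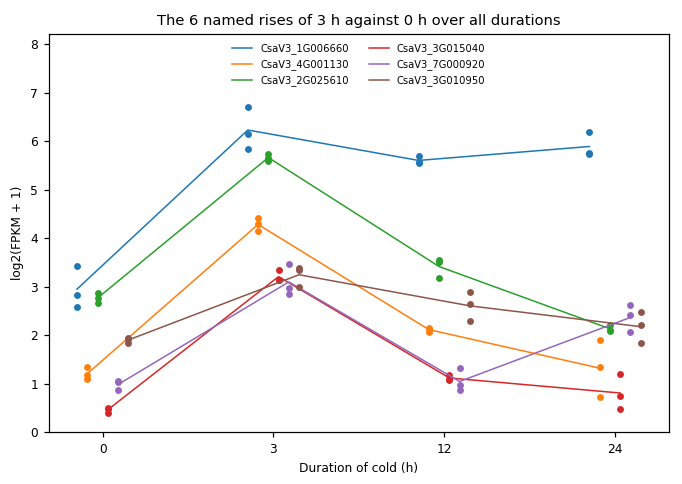
Level of the 6 members with the largest rises at 3 h against 0 h, as log2(FPKM + 1) over the duration of cold; each point is a library and each line joins the means of 3 libraries. CsaV3_1G006660 stayed high to 24 h, while CsaV3_4G001130, CsaV3_2G025610 and CsaV3_3G015040 stand highest at 3 h and are lower from 12 h on.

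All 5 genes named MYB1R1 were lower at 24 h than at 0 h, where 37.9% of tested genes fell. The name is that of a potato single-repeat factor linked to drought tolerance and leaf water loss. The most abundant, CsaV3_1G008110 on chromosome 1 (5119221 to 5121677), had 205, 214 and 225 FPKM at 0 h, 125, 145 and 127 at 3 h, 58.3, 47.1 and 49.1 at 12 h and 38.8, 29.4 and 29.5 at 24 h. No library of a duration overlapped those of the durations before or after it. The log2 fold change against 0 h was -0.70 ± 0.11 at 3 h (adjusted p = 0.000237), -2.01 ± 0.12 at 12 h (2.74e-08) and -2.66 ± 0.12 at 24 h (1.7e-09).

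Other MYB1R1 genes rose before they fell. The MYB1R1-like gene CsaV3_2G025610 had 6.29, 5.75 and 5.34 FPKM at 0 h, 47.3, 49.3 and 52.3 at 3 h, 10.4, 8.05 and 10.7 at 12 h and 3.65, 3.22 and 3.27 at 24 h. It rose at 3 h (log2 fold change 3.10 ± 0.12, adjusted p = 4.46e-09), was still raised at 12 h (0.80 ± 0.12, adjusted p = 6.59e-05) and was below the 0 h level at 24 h (-0.72 ± 0.12, adjusted p = 0.000146). CsaV3_5G032040 had 35, 43.2 and 32.3 FPKM at 0 h, 75.5, 67.5 and 75.8 at 3 h, 11, 13.9 and 13.8 at 12 h and 13.8, 15.8 and 13.9 at 24 h. Its change against 0 h was 0.98 ± 0.13 at 3 h (adjusted p = 4.03e-05) and -1.46 ± 0.13 at 12 h (adjusted p = 9.18e-07), and the libraries of 12 and 24 h lay below all others.

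CsaV3_3G002560 dropped early and was uneven later. It had 73.4, 75.4 and 82.8 FPKM at 0 h, 27.5, 23.9 and 23.8 at 3 h, 17.5, 11.9 and 11.7 at 12 h and 61.3, 37.6 and 16.6 at 24 h. The 24 h libraries spanned most of the gene's range, and the log2 fold change of 24 h against 0 h was -0.95 ± 0.33 (adjusted p = 0.0214). That call was lost without the third 0 h library (adjusted p = 0.0546) or the second 24 h library (adjusted p = 0.0559). The falls at 3 h (-1.62 ± 0.34, adjusted p = 0.00141) and 12 h (-2.44 ± 0.35, adjusted p = 5.36e-05) were kept without any one library. The fifth, CsaV3_1G001910, had 34.7, 31.5 and 21.2 FPKM at 24 h against 44.2, 43.7 and 43.8 FPKM at 0 h (-0.53 ± 0.14, adjusted p = 0.00519).

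The 5 measured genes named 306 were likewise all called as lower at 24 h than at 0 h, where 37.9% of tested genes fell. At 3 h 1 rose and 2 fell, where 29.4% and 28.3% of tested genes did, and at 12 h 3 fell (33.0% of tested genes). Arabidopsis relatives of this snapdragon factor regulate cuticular wax synthesis and stomata. CsaV3_1G005480 had 51.1, 58.2 and 40.2 FPKM at 0 h, 34.2, 32.7 and 33.1 at 3 h, 23.3, 24.3 and 23.1 at 12 h and 12.1, 5.25 and 6.74 at 24 h. Its mean was lower at each later duration, down to a log2 fold change of -2.58 ± 0.25 at 24 h against 0 h (adjusted p = 1.25e-06), but the step of 12 h against 3 h did not pass the test (-0.45 ± 0.23, adjusted p = 0.121). Its early step was narrow: at 3 h it was -0.58 ± 0.23 (adjusted p = 0.0477), and this call was lost without the first or second library of 0 h or any one of 3 or 12 h (adjusted p 0.061 to 0.163), and under each of 3 other scalings (0.0512 to 0.0525).

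CsaV3_3G039670 had 31.8, 38.9 and 29.5 FPKM at 0 h, 22.7, 24.8 and 28.8 at 3 h, 10.2, 10.8 and 11.4 at 12 h and 10.4, 8.03 and 8.03 at 24 h. Most of its fall came between 3 and 12 h (-1.18 ± 0.14, adjusted p = 2.1e-05), and at 24 h it was -1.87 ± 0.14 against 0 h (adjusted p = 1.74e-07). CsaV3_3G041510 had 3.41, 4.86 and 3.42 FPKM at 24 h against 9.55, 12.3 and 9.13 FPKM at 0 h (-1.35 ± 0.17, adjusted p = 1.18e-05), with no call at 3 h. CsaV3_5G038180 had 3.01, 4.25 and 5.82 FPKM at 24 h against 9.70, 9.05 and 8.71 FPKM at 0 h (-1.01 ± 0.19, adjusted p = 0.000369) and was lower at 24 h than at 12 h (-1.22 ± 0.19, adjusted p = 0.000213). Before that, it was called as higher at 3 h, with 12.4, 11.8 and 13.8 FPKM (0.47 ± 0.18 against 0 h, adjusted p = 0.0477), a call lost without any one library of 0, 3 or 12 h or the second of 24 h (adjusted p 0.0556 to 0.143). The lowest of the 5, CsaV3_4G029040, had 2.77, 3.31 and 2.39 FPKM at 24 h against 4.22, 3.71 and 4.70 FPKM at 0 h (-0.52 ± 0.18, adjusted p = 0.0229), and its call was lost without the third library of 0 h (adjusted p = 0.0838) or of 24 h (adjusted p = 0.0772).

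**Figure D4:**
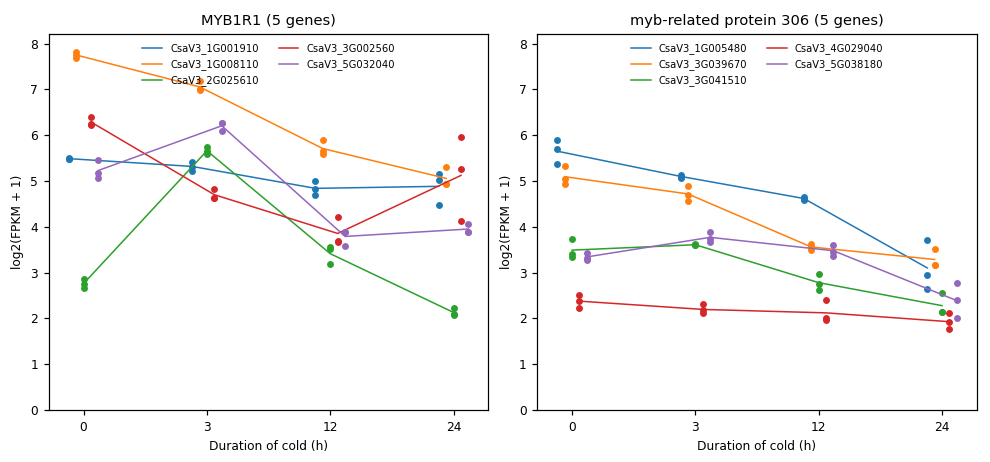
Levels of the 5 MYB1R1 genes (left) and the 5 genes named 306 (right) as log2(FPKM + 1) over the duration of cold; points are libraries and lines join the means of 3 libraries. Each line ends at 24 h below where it began at 0 h, and the steepest rises at 3 h are those of CsaV3_2G025610 and CsaV3_5G032040, while CsaV3_5G038180 and CsaV3_3G041510 also have their highest mean there.

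MYB44-like genes mostly went up, and did so late. MYB44 of Arabidopsis acts in abscisic acid responses and stomatal closure. Of 7 measured members 2 rose and 1 fell at 3 h, and 5 rose and 1 fell at both 12 and 24 h, against 0 h. Of all tested genes 29.4% rose and 28.3% fell at 3 h, 34.4% and 33.0% at 12 h and 36.2% and 37.9% at 24 h. CsaV3_2G026410 on chromosome 2 (18065214 to 18066086) had 9.33, 11.1 and 14.5 FPKM at 0 h, 11.1, 11.4 and 9.43 at 3 h, 32.1, 38.6 and 32.5 at 12 h and 96.7, 151 and 146 at 24 h. The 3 h libraries overlapped those of 0 h (-0.13 ± 0.19, adjusted p = 0.565), and those of 24 h stood apart (3.55 ± 0.20, adjusted p = 1.06e-08). Each later step was called, with 1.75 ± 0.19 for 12 h against 3 h (adjusted p = 9.36e-06) and 1.93 ± 0.19 for 24 h against 12 h (adjusted p = 5.28e-06).

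CsaV3_2G028170, on the same chromosome, had 0.473, 0.588 and 1.04 FPKM at 0 h, 1.20, 2.01 and 1.02 at 3 h, 3.03, 3.19 and 3.02 at 12 h and 23.9, 33.1 and 37.4 at 24 h. It was the MYB44-like gene with the largest fold change at 24 h (5.51 ± 0.33, adjusted p = 1.7e-08). Its call at 3 h (0.97 ± 0.31, adjusted p = 0.0173) was lost without the first or second library of 0 h or the second of 3 h (adjusted p 0.0602 to 0.0924). CsaV3_3G018200 had 9.47, 10.0 and 3.34 FPKM at 24 h against 0.860, 0.687 and 1.43 FPKM at 0 h (2.98 ± 0.43, adjusted p = 5.04e-05), with the third 24 h library well under the others. CsaV3_6G043570 had 39.5, 59.2 and 75.9 FPKM at 24 h against 28.4, 27.0 and 33.6 FPKM at 0 h (1.03 ± 0.19, adjusted p = 0.00031) and had risen by 3 h (0.63 ± 0.19, adjusted p = 0.012).

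CsaV3_4G034750 peaked at 12 h, with 6.64, 8.92 and 9.07 FPKM at 0 h, 6.78, 9.18 and 9.08 at 3 h, 27.2, 28.0 and 24.2 at 12 h and 15.7, 17.7 and 15.5 at 24 h. Its 12 h libraries were above all others (1.74 ± 0.15 against 0 h, adjusted p = 9.07e-07), and it was lower at 24 h than at 12 h (-0.69 ± 0.15, adjusted p = 0.00213). CsaV3_2G035520 went the other way, with 10.8, 11.4 and 10.3 FPKM at 0 h, 7.82, 7.51 and 7.81 at 3 h, 2.65, 3.01 and 2.33 at 12 h and 6.36, 5.73 and 4.37 at 24 h. It was lowest at 12 h (-1.98 ± 0.13, adjusted p = 8.94e-08) and partly recovered by 24 h (1.05 ± 0.13 against 12 h, adjusted p = 4.41e-05). The seventh, CsaV3_5G010280, stayed between 0.804 and 1.60 FPKM in all 12 libraries, with no call against 0 h.

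The 2 members with the largest rises at 24 h by fold change, apart from MYB98, were Myb4-like. Their rice namesake raised cold tolerance when overexpressed in Arabidopsis. CsaV3_3G022290 on chromosome 3 (19581175 to 19584056) had 0.142, 0.205 and 0.162 FPKM at 0 h, 1.03, 1.18 and 0.671 at 3 h, 0.955, 1.29 and 1.31 at 12 h and 16.1, 29.7 and 21.0 at 24 h. Its level stepped up by 3 h (2.45 ± 0.31, adjusted p = 3.41e-05), did not pass the test between 3 and 12 h (0.37 ± 0.26, adjusted p = 0.249) and stepped up again at 24 h (4.22 ± 0.27 against 12 h, adjusted p = 2.09e-07). Against 0 h the 24 h change was 7.04 ± 0.32 (adjusted p = 1.89e-09), with at most 0.205 FPKM in a 0 h library.

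CsaV3_2G012780, the second, had 0.264, 0.336 and 0.322 FPKM at 0 h, 2.51, 2.09 and 1.62 at 3 h, 1.10, 0.832 and 1.27 at 12 h and 14.7, 15.6 and 16.9 at 24 h. It was lower at 12 h than at 3 h (-0.90 ± 0.19, adjusted p = 0.00158) before its rise at 24 h (5.70 ± 0.22 against 0 h, adjusted p = 5.22e-10). The third Myb4-like member, CsaV3_6G008660, had 3.29, 2.80 and 3.41 FPKM at 24 h and 4.34, 2.90 and 3.11 FPKM at 0 h, overlapping ranges (-0.07 ± 0.20, adjusted p = 0.776). The other 3 Myb4-described genes were below the filter.

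The 305-like gene CsaV3_1G003920, named after a snapdragon activator of phenylpropanoid genes, rose at each duration. It had 4.09, 2.11 and 3.19 FPKM at 0 h, 7.03, 7.79 and 5.97 at 3 h, 10.8, 9.57 and 10.1 at 12 h and 29.9, 23.6 and 19.1 at 24 h, and no duration overlapped the next. The log2 fold change of 24 h against 0 h was 3.00 ± 0.23 (adjusted p = 1.65e-07). The middle step was small, at 0.61 ± 0.21 for 12 h against 3 h (adjusted p = 0.0298), and was lost when the first or the third library of 3 h, or any one of 12 h, was left out (adjusted p 0.0503 to 0.104). The 340-like gene CsaV3_5G027300, of the same snapdragon group, had 14.1, 11.2 and 12.8 FPKM at 0 h, 20.1, 16.8 and 15.9 at 3 h, 10.2, 6.42 and 7.41 at 12 h and 22.9, 21.7 and 14.8 at 24 h. It was called as a fall at 12 h (-0.61 ± 0.20, adjusted p = 0.0164) and a rise at 24 h (0.70 ± 0.20, adjusted p = 0.00676) against 0 h. The fall was lost without the first library of 0 h or the second or the third of 12 h (adjusted p 0.0544 to 0.0721).

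**Figure D5:**
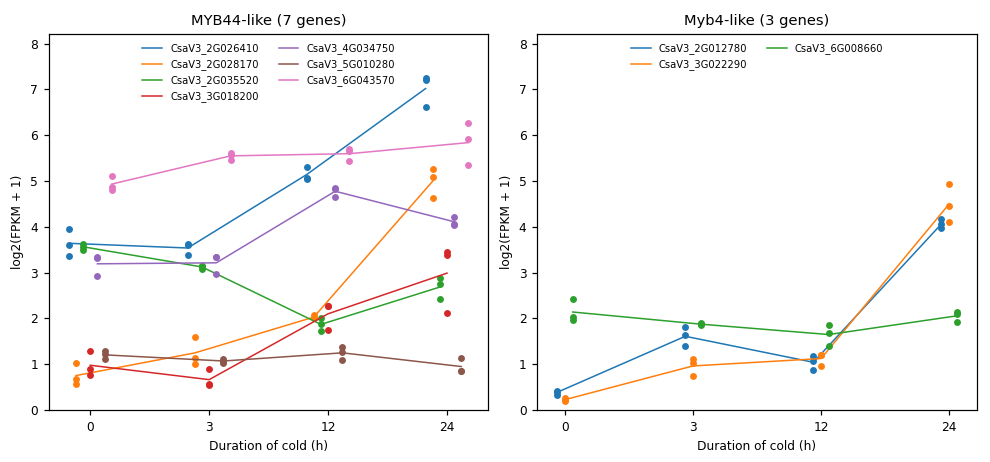
Levels of the 7 MYB44-like genes (left) and the 3 Myb4-like genes (right) as log2(FPKM + 1) over the duration of cold; points are libraries and lines join the means of 3 libraries. The steepest climbs to 24 h are those of CsaV3_2G026410, CsaV3_2G028170, CsaV3_2G012780 and CsaV3_3G022290, while CsaV3_2G035520 is lowest and CsaV3_4G034750 highest at 12 h.

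Genes named transcription repressor MYB6 held the most abundant R2R3 member. That gene, CsaV3_7G004070, also carries a term for photosystem II assembly and spans 11890 bp. Whether its level belongs to a MYB factor alone was not tested. CsaV3_7G004070 on chromosome 7 (2977069 to 2988958) had 134, 143 and 120.2 FPKM at 0 h, 156, 160 and 161 at 3 h, 140.1, 146 and 163 at 12 h and 115, 104 and 110.1 at 24 h. Its changes against 0 h were small, at 0.26 ± 0.08 at 3 h (adjusted p = 0.0174), 0.23 ± 0.08 at 12 h (0.0272) and -0.22 ± 0.08 at 24 h (0.0306). The call at 3 h was lost without the third library of 0 or 3 h, that at 12 h without the first or the third of 0 h or the third of 12 h, and that at 24 h without the first or second of 0 h or the second of 3 or 24 h (adjusted p 0.0523 to 0.139). The difference of 24 h against 12 h (-0.45 ± 0.08, adjusted p = 0.000768) was kept without any one library. CsaV3_5G040410 moved more, with 39.5, 47.2 and 48.0 FPKM at 0 h, 61.1, 66.9 and 50.9 at 3 h, 20.2, 16.0 and 15.9 at 12 h and 43.9, 36.3 and 34.9 at 24 h. It was lowest at 12 h (-1.32 ± 0.13 against 0 h, adjusted p = 3.12e-06) and its 24 h libraries overlapped those of 0 h. Its call at 3 h (0.41 ± 0.13, adjusted p = 0.0187) was lost without the first library of 0 h or the first or second of 3 h (adjusted p 0.0525 to 0.0878).

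CsaV3_7G004040, a MYB6-like gene 16665 bp from CsaV3_7G004070 and on the other strand, had 0, 0 and 0.109 FPKM at 0 h, 2.54, 2.02 and 1.12 at 3 h, 0.0874, 0 and 0 at 12 h and 0.576, 0.212 and 0.311 at 24 h. It was above 1 FPKM at 3 h alone, on few fragments, and was a member through those libraries, so no test is given. The other MYB6 genes had smaller changes. CsaV3_3G009020 had 1.61, 1.93 and 2.00 FPKM at 12 h against 3.87, 3.63 and 3.07 FPKM at 0 h (-0.88 ± 0.24, adjusted p = 0.00625). CsaV3_6G022540 had 2.84, 2.61 and 2.66 FPKM at 24 h against 1.89, 1.76 and 1.60 FPKM at 0 h (0.68 ± 0.19, adjusted p = 0.00689).

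Of the 4 GARP-type members, all named after the phloem identity factor APL, 2 rose and 2 fell at 3 h and 1 rose and 2 fell at both 12 and 24 h, against 0 h, beside the shares of all tested genes given for the MYB44-like genes. The isoform X2 gene CsaV3_3G010950 had 2.84, 2.56 and 2.78 FPKM at 0 h, 7.00, 9.11 and 9.50 at 3 h, 6.37, 3.87 and 5.24 at 12 h and 4.59, 3.59 and 2.57 at 24 h. It rose at 3 h (1.65 ± 0.22, adjusted p = 5.63e-05) and its 24 h libraries overlapped those of 0 h. CsaV3_2G010620 was high at 3 and 24 h, with 1.99, 2.07 and 2.88 FPKM at 0 h, 5.52, 5.29 and 4.05 at 3 h, 2.52, 1.87 and 1.86 at 12 h and 8.74, 5.74 and 6.09 at 24 h. Its change against 0 h was 1.10 ± 0.21 at 3 h (adjusted p = 0.000923) and 1.62 ± 0.22 at 24 h (adjusted p = 2.4e-05).

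The remaining APL-named genes fell. The most abundant of the type, CsaV3_6G013430, had 22.4, 17.2 and 18.7 FPKM at 0 h, 16.9, 13.5 and 15.8 at 3 h, 11.9, 12.3 and 11.3 at 12 h and 9.95, 7.04 and 8.73 at 24 h. Its fall reached -1.12 ± 0.14 at 24 h (adjusted p = 9.8e-06), while the call at 3 h (-0.33 ± 0.13, adjusted p = 0.0487) was lost without the first or the third library of 0 h, the second or the third of 3 h or any one of 12 h (adjusted p 0.0616 to 0.203). The APL-like gene CsaV3_7G023070 had 6.65, 6.97 and 7.23 FPKM at 3 h and 6.98, 7.95 and 7.03 FPKM at 24 h against 11, 9.62 and 10.5 FPKM at 0 h (3 h: -0.58 ± 0.09, adjusted p = 0.000186). Summed phloem markers were 310 to 482 FPKM at 3 h, 357 to 562 at 12 h and 504 to 1364 at 24 h, against 276 to 493 at 0 h, with 8 of 12 tested and 1 at 0 in all libraries, and their part in the APL values was not tested.

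The single measured gene named 3R, CsaV3_3G047460, had 4.32, 3.65 and 3.87 FPKM at 0 h, 7.86, 6.53 and 8.12 at 3 h, 5.80, 5.19 and 5.93 at 12 h and 5.25, 4.02 and 4.07 at 24 h. It rose at 3 h (0.93 ± 0.12, adjusted p = 5.22e-05) and 12 h (0.57 ± 0.12, adjusted p = 0.0014), and its 24 h libraries overlapped those of 0 h. A gene on the opposite strand overlaps it, as one does the cyclin-D-binding gene CsaV3_3G009340, and without a stated strand setting their reads cannot be told apart. CsaV3_3G009340, which bears the name of a mammalian factor, had 1.87, 1.69 and 1.06 FPKM at 24 h against 3.53, 2.83 and 3.01 FPKM at 0 h (-0.96 ± 0.28, adjusted p = 0.00757).

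The A-like, activator Myb-like and GAMYB genes rose at all 3 later durations. The A-like gene CsaV3_3G034890 had 8.02, 6.97 and 7.02 FPKM at 0 h, 9.62, 10.1 and 9.32 at 3 h, 10.5, 10.3 and 10.6 at 12 h and 18.0, 16.1 and 15.7 at 24 h (1.24 ± 0.08 at 24 h against 0 h, adjusted p = 4.04e-08). The activator Myb-like gene CsaV3_4G034040 had 1.97, 1.45 and 1.5 FPKM at 0 h, 3.92, 3.61 and 3.99 at 3 h, 3.83, 4.24 and 4.08 at 12 h and 6.46, 7.44 and 7.86 at 24 h (2.20 ± 0.15 at 24 h against 0 h, adjusted p = 4.57e-08). GAMYB is a gibberellin-response activator known from barley grain, and CsaV3_6G004540 had 11.3, 14.8 and 13.6 FPKM at 24 h against 4.71, 6.58 and 5.22 FPKM at 0 h (1.32 ± 0.15, adjusted p = 5.38e-06).

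MYB59 and MYB48, known in Arabidopsis as close relatives whose transcripts are alternatively spliced, had cucumber namesakes with opposite ends. The MYB59-like gene CsaV3_1G033690 had 17.8, 17.1 and 20.8 FPKM at 0 h, 9.25, 7.74 and 9.01 at 3 h, 8.45, 7.80 and 7.50 at 12 h and 4.17, 3.51 and 2.76 at 24 h. It fell by 3 h (-1.10 ± 0.14, adjusted p = 3.73e-05) and again after 12 h (-1.18 ± 0.14 against 12 h, adjusted p = 3.32e-05), to -2.36 ± 0.15 at 24 h (adjusted p = 2.66e-08). MYB48 (CsaV3_6G022180), singled out after its values were seen, had 68.5, 52.7 and 18.8 FPKM at 24 h against 16.5, 15.2 and 15.9 FPKM at 0 h (1.62 ± 0.33, adjusted p = 0.000763), and the third 24 h library stood just above the 0 h libraries. The 24 h libraries also differed in summed phloem markers, given above, whose part in this spread was not tested.

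A further 3 R2R3 members fell at 24 h against 0 h. The MYB32-like gene CsaV3_1G001180 had 0.568, 0.465 and 0.487 FPKM at 12 h against 2.04, 2.12 and 3.33 FPKM at 0 h (-2.23 ± 0.25, adjusted p = 7.25e-06) and was higher again at 24 h than at 12 h (1.26 ± 0.25, adjusted p = 0.00117), where it was still below the 0 h level (-0.97 ± 0.24, adjusted p = 0.00265). The 315-like gene CsaV3_6G049630 had 1.51, 0.563 and 0.438 FPKM at 24 h against 3.21, 2.21 and 3.59 FPKM at 0 h (-1.77 ± 0.39, adjusted p = 0.00121), or -2.51 without the first 24 h library. The Zm38 gene CsaV3_3G041870 had 0.329, 0.475 and 0.967 FPKM at 24 h against 1.68, 1.28 and 1.49 FPKM at 0 h (-1.26 ± 0.45, adjusted p = 0.0236), a call lost without the first library of 0 h or the first or second of 24 h (adjusted p 0.0627 to 0.0776). The MYB86-like gene CsaV3_1G008780 had between 0.183 and 0.892 FPKM in the 9 chilled libraries against 2.81, 2.94 and 5.80 FPKM at 0 h; it was a member through those 0 h libraries alone, so no test is given. The other member with MYB86 in its name, CsaV3_4G025860, had 5.71, 6.13 and 6.00 FPKM at 24 h against 5.20, 5.29 and 5.74 FPKM at 0 h, with no call at any duration.

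MYB98, known in Arabidopsis for its role in the synergid cells of the ovule, was listed at 0 in all 6 libraries of 0 and 3 h. CsaV3_5G027280 had 0.166, 0 and 0.0551 FPKM at 12 h and 3.17, 2.77 and 1.01 FPKM at 24 h. It was a member through its 24 h libraries alone, so no test of 24 h is given, and no fold is given against a group at 0. The call at 12 h against 0 h (adjusted p = 0.0385) rests on traces in 2 libraries and was lost without either of the first and the third 12 h library, among others (adjusted p up to 0.132). It lies 9214 bp from the 340-like gene CsaV3_5G027300, which was also higher at 24 h than at 12 h.

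The 3 genes named target of Myb protein 1 had small changes. CsaV3_3G048660 had 18.8, 18.1 and 20.4 FPKM at 0 h, 32.6, 35.3 and 32.4 at 3 h, 30.2, 21.0 and 24.3 at 12 h and 25.7, 21.3 and 14.3 at 24 h. It rose at 3 h (0.80 ± 0.18, adjusted p = 0.00206), while the call at 12 h (0.45 ± 0.18, adjusted p = 0.0401) was lost without any one of the 0 h libraries (adjusted p 0.0568 to 0.102), among others. The 24 h libraries lay on both sides of those of 0 h (0.15 ± 0.18, adjusted p = 0.445). CsaV3_2G031010 had 34.7, 33.2 and 27.0 FPKM at 24 h against 24.3, 21.6 and 22.6 FPKM at 0 h (0.53 ± 0.09, adjusted p = 0.000238), and CsaV3_4G027580 stayed between 14.9 and 21.4 FPKM with no call.

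Genes of processes that MYB factors are known to control were counted from lists of descriptions. Of 74 tested phenylpropanoid and flavonoid enzymes, 35 rose and 10 fell at 3 h, 33 rose and 24 fell at 12 h and 32 rose and 26 fell at 24 h against 0 h. The rises were 47.3% of the list at 3 h, 44.6% at 12 h and 43.2% at 24 h, beside 29.4%, 34.4% and 36.2% of all tested genes, and the falls 13.5%, 32.4% and 35.1%, beside 28.3%, 33.0% and 37.9%. Their median log2 fold change was 0.52 at 3 h, -0.06 at 12 h and 0.28 at 24 h, beside 0.00, 0.00 and -0.03 over all tested genes. The phenylalanine ammonia-lyase gene CsaV3_6G039710, of the entry enzyme of the pathway, had 137, 121 and 127 FPKM at 24 h against 0.383, 4.28 and 1.93 FPKM at 0 h (5.91 ± 0.59, adjusted p = 1.83e-06). A second gene of that name, CsaV3_6G039690, had 102, 111 and 144 FPKM at 24 h against 0.188, 4.41 and 1.60 FPKM at 0 h (5.90 ± 0.72, adjusted p = 1.05e-05). The 0 h libraries of both differed widely among themselves.

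Cuticle and wax enzymes were called as falls more often than as rises at 12 and 24 h. Of 19 tested, 9 rose and 7 fell at 3 h, 5 rose and 11 fell at 12 h and 6 rose and 10 fell at 24 h, with medians of 0.41, -0.47 and -0.44. The rises were 47.4%, 26.3% and 31.6% of the list at 3, 12 and 24 h and the falls 36.8%, 57.9% and 52.6%, beside the shares of all tested genes just given. The 3-ketoacyl-CoA synthase 6 gene CsaV3_5G034300, which elongates wax precursors, had 9.85, 7.01 and 11 FPKM at 24 h against 148, 196 and 127 FPKM at 0 h (-4.02 ± 0.19, adjusted p = 2.76e-09). ECERIFERUM 1 (CsaV3_3G010300), needed for wax alkanes, had 11.1, 7.75 and 10.7 FPKM at 24 h against 58.5, 75.5 and 55.0 FPKM at 0 h (-2.62 ± 0.19, adjusted p = 1.12e-07).

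SPX proteins, which bind GARP-type phosphate regulators, were all tested, 6 of 6. At 3 h 4 rose and 1 fell, at 12 h 2 rose and 2 fell and at 24 h 4 rose and 1 fell, with medians of 1.43, -0.10 and 1.25. The rises were 66.7%, 33.3% and 66.7% of this short list, beside 29.4%, 34.4% and 36.2% of all tested genes. The falls were 16.7%, 33.3% and 16.7%, beside 28.3%, 33.0% and 37.9%. The SPX domain-containing protein 1 gene CsaV3_1G030190 had 36.2, 47.4 and 90.3 FPKM at 24 h against 9.50, 5.92 and 8.70 FPKM at 0 h (2.91 ± 0.28, adjusted p = 1.56e-06). CsaV3_2G002890 of the same name had 106, 143 and 201 FPKM at 24 h against 36.7, 35 and 33.0 FPKM at 0 h (2.16 ± 0.20, adjusted p = 1.03e-06).

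Possible partners of MYB factors, bHLH proteins in the main, were also called as falls more often than as rises at 12 and 24 h. The list took any gene described as bHLH, so it is not limited to genes known to bind a MYB factor. Of 69 tested, 21 rose and 21 fell at 3 h, 20 rose and 31 fell at 12 h and 17 rose and 30 fell at 24 h, with medians of -0.15, -0.30 and -0.30. At 3 h the shares that rose and fell were 30.4% each, near the 29.4% and 28.3% of all tested genes. At 12 h 29% rose and 44.9% fell, beside 34.4% and 33.0% of all tested genes, and at 24 h 24.6% rose and 43.5% fell, beside 36.2% and 37.9%. The bHLH35-like gene CsaV3_2G008770 had 5.12, 3.33 and 3.38 FPKM at 24 h against 182, 181 and 197 FPKM at 0 h (-5.50 ± 0.20, adjusted p = 3.11e-10). The bHLH118-like gene CsaV3_5G003410 had 0, 0.0941 and 0.192 FPKM at 24 h against 9.37, 10.3 and 9.65 FPKM at 0 h (-6.57 ± 0.68, adjusted p = 2.44e-06). Whether any of these genes is bound by a MYB member was not tested.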

How the data were processed

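Sequenced leaf RNA of cucumber came as 12 libraries, 3 for each of 4 cold durations. The submitters' processing notes name cutadapt 1.9 and FastQC, and HISAT2 placed the reads on a cucumber genome from CuGenDB, as the series' design text states. The sources used here do not say how reads were counted (tool, annotation, build, strand, reads shared by similar genes). Gene positions are those of the table, and genes with near-identical copies are uncertain to that extent. The authors deposited estimated counts per gene as whole numbers and FPKM values, per the file headers. Low values are spaced at about 3.78 units per fragment, so totals of 62.7 to 81.6 M units stand for about 16.6 to 21.6 M fragments; 61048 counts of 0 were read as 0 FPKM.

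The test took the 16432 genes that reached 1 FPKM in 3 or more libraries, with 99.84% of counts, and left out 7885. Counts were tested with edgeR 4.0.16 (quasi-likelihood, TMM scaling, R 4.3.3) in 1 fit over 12 libraries without a block, two-sided, with Benjamini-Hochberg adjustment over the tested genes of each comparison and a threshold of 0.05. The biological coefficient of variation was 17.2%. Folds are log2 with SE; levels are FPKM, and plots use log2(FPKM + 1). Procedures were tested on simulated data. The members, classes and gene lists were chosen with earlier results of these data known.

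Members were named by rule: per comparison with 0 h the 6 largest rises and falls of mean log2(FPKM + 1), and per step 3 each, among called members whose groups did not overlap and whose higher group averaged 5 FPKM or more; the highest member of each class; and the 3 widest that turned direction. Of each related list the 2 largest changes at 24 h were named. Other members are described to account for all 55. Alternatives were other scalings, filters, DESeq2 1.42.0, limma 3.58.1 on log2 FPKM with pseudocounts of 0.1, 1 and 5, a replicate block, fits of only the groups compared, a 2-fold threshold and fits without each library in turn. Counts per fragment and membership without the 3 target of Myb protein 1 genes, or without the 3 members over 1 FPKM in a single duration, were chosen after seeing the data. No sequences are shown. The plots used matplotlib 3.10.9 and Python 3.11.15.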

Additional observations from a re-analysis of the deposited data

How the results depend on the processing

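The number of members called stayed within 1.5 times of that reported under other scalings, DESeq2, limma at 3 pseudocounts, no filter on low values, fits of only the groups compared and counts per fragment. With a 2-fold threshold added, 16 members were called at 3 h (29.1%, against 19.9% of all tested genes) and 25 at 12 h (45.5% against 29.5%), both against 0 h. At 24 h against 12 h, 22 were called (40% against 17.4%). Rises were then 81.2% of the calls at 3 h and 72.7% of those of 24 h against 12 h, against 70.6% and 61.1% without the 2-fold threshold. With a mean of at least 5 FPKM, which leaves 35 members, 28 were called at 24 h against 0 h (80%, against 78.9% of all genes so filtered), 23 at 24 h against 12 h (65.7% against 57.7%) and 33 at any duration (94.3% against 93.5%). Leaving out 1 library gave 26 to 36 members at 3 h against 0 h (47.3% to 65.5%, against 51.6% to 62.2% of all tested genes). At 12 h against 0 h it gave 34 to 41 (61.8% to 74.5%, against 62.0% to 70.9%), and at 24 h 42 to 47 (76.4% to 85.5%, against 69.9% to 74.4%). At 12 h against 3 h it gave 25 to 34 (45.5% to 61.8%, against 47.9% to 60.0%). At 24 h against 12 h it gave 30 to 38 (54.5% to 69.1%, against 44.4% to 55.6%). At any duration 48 to 51 members were called. The share of all tested genes at any duration was not taken with a library left out. With all 12 libraries it was 89.3%, beside 92.7% of the members. The calls kept without any one library were 25 of 34 at 3 h, 34 of 40 at 12 h, 39 of 45 at 24 h, 24 of 30 and 28 of 36 for the later steps, and no called member changed sign under any alternative. Calls kept over all tested genes were not counted, so it is not known whether these numbers are usual for the data. Without the 3 target of Myb protein 1 genes the counts were 33, 39, 44, 30 and 35 of 52 members, beside the shares of all tested genes given with each comparison above.

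Replicate numbers did not pair the samples. Each library's deviations from the mean of its duration were correlated across tested genes, and same-numbered libraries gave values between -0.072 and 0.076. With the replicate number as a block, 33 members were called at 3 h, 40 at 12 h and 43 at 24 h against 0 h, 30 at 12 h against 3 h, 33 at 24 h against 12 h and 49 at any duration. Of all tested genes, 56.6%, 66.6% and 73.4% were then called at 3, 12 and 24 h against 0 h. The shares were 54.3% at 12 h against 3 h and 50.8% at 24 h against 12 h, and the share at any duration was not taken with the block.

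Of 66 fold changes of members named by the rule, 57 kept their direction and side of the threshold under every alternative run. Over 1580 values under alternatives, 79 lost a call, 1 gained one and 1 changed sign: the target of Myb protein 1-like gene CsaV3_3G048660 at 24 h against 0 h, 0.15 with all libraries, was -0.04 without the first 24 h library (adjusted p = 0.81) and was called without the third (0.36, adjusted p = 0.0236). The cause was not tested. Upper-quartile scaling lowered the median of all tested genes by 0.109 (log2) at 24 h against 0 h and the other scalings moved it by under 0.1 in each comparison. At this depth the lowest members, under 1 FPKM in most libraries, rest on few fragments.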

Other observations

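The 41 MYB-described genes below the filter included 6 with a library at or above 1 FPKM. The myb-like protein X gene CsaV3_3G012810 had 3.63, 1.09 and 0.167 FPKM at 24 h and at most 0.154 FPKM in the other 9 libraries. A second 3R-1 gene, CsaV3_2G031060, had 1.32, 1.24 and 0.733 FPKM at 24 h against 0.739, 0.661 and 0.826 FPKM at 0 h. The Myb4-like gene CsaV3_3G012100 had 0.434, 1.07 and 0.466 FPKM at 24 h against 0, 0 and 0.0312 FPKM at 0 h. These genes were not called changed or unchanged, since they did not enter the members. A gene named MYB44, CsaV3_2G010610, which lies 17805 bp from the APL gene CsaV3_2G010620, had no count in any 24 h library against 0.414, 0.402 and 0.390 FPKM at 0 h.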
